A study of Mus musculus with 2 samples.

Results

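The cytosolic ribosomal protein genes were followed in mouse CD4+ T cells from cultures that steer them towards T helper 17 (Th17) cells. Members were the annotated genes whose symbol is Rpl or Rps with a number and an optional letter, l or x, together with Rplp0, Rplp1, Rplp2, Rpsa and Fau. Symbols with -ps, which name pseudogenes, and the Rps6k kinases were left out. The rule gave 84 of the 13056 annotated genes in the authors' table, 50 of the large and 34 of the small ribosomal subunit. It used names only and no measured value. Rps3a1 was found through its older symbol Rps3a, and Rps4l, a transcribed pseudogene in RefSeq, was kept because its symbol fits the rule. The design set T cells grown with antigen presenting cells (APCs) that carry a transgene for OX40L against T cells grown with wild-type (WT) APCs. OX40L is the ligand of OX40, a costimulatory receptor of activated T cells.

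Both cultures held wild-type CD4+ T cells of the strain C57BL/6, from animals aged 6 to 8 weeks, and lasted 48 h. One culture contained WT-APCs and the other OX40L-TG APCs, and the libraries are called WT-APC and OX40L-TG-APC here. From each culture 1 µg of total RNA went into a TruSeq library. Each condition had 1 library, so no difference between the conditions could be tested, and every comparison of them is a comparison of 2 libraries. The promoter that drives the transgene, the kind of APC and whether APCs were removed before RNA was taken are not known from the labels. The design contrasts the cultures, and OX40L on the APCs cannot be told apart from any other difference between them.

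A ribosome is built from a large and a small subunit, each an RNA core covered by many small basic proteins. Nearly every one of these proteins is needed in a single copy per subunit, so the genes are transcribed together at high levels in growing cells, and activated T cells raise ribosome production before they divide. Most ribosomal protein mRNAs start with a C followed by a run of pyrimidines, the terminal oligopyrimidine (TOP) motif, through which the kinase complex mTORC1 and the protein Larp1 control their translation. Their abundant, short mRNAs have also been copied back into the genome many times, which left a large number of processed pseudogenes.

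The start of the gene is shown for 8 members in which a pyrimidine run covers the annotated start. This run is the sequence feature known for the family, and the selection rule did not use it. Each line gives 10 bases before and 15 bases from the annotated start, from RefSeq promoters of GRCm38.p6, 5′ to 3′, with the pyrimidine run in capitals.
Rpl15 (chr14:18270972-18270996, - strand): agaaagCCTTCTTCCTTTCCTCTgg
Rpl28 (chr7:4792955-4792979, + strand): tctcgtgTCTCTCTTTCCgtctccg
Rpl35 (chr2:39005117-39005141, - strand): ccgCCCTTTCCTCTTTCTCTCgaac
Rpl35a (chr16:33056472-33056496, + strand): gcttgCCTTCCTCTTTCCgccatct
Rps10 (chr17:27635230-27635254, - strand): gcgcacgCCCCTTCCTTTCCagcct
Rps18 (chr17:33955651-33955675, - strand): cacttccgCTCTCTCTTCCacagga
Rps6 (chr4:86857353-86857377, - strand): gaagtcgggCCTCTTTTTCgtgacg
Fau (chr19:6057937-6057961, + strand): gcccccaCTTCTTCCTCTTTCTTga
A run of at least 7 letters C or T that reached within 15 bases of an annotated start, read on the gene's strand, was found for 39 of the 63 members with a promoter in the RefSeq table, or 61.9%. Among all 10436 annotated genes with a promoter the share was 28.9%. Runs that do not cover the start were counted too, such as those that begin at base 9 in Rps12 and base 12 in Rplp0. The shares are thus not shares of TOP motifs. Large subunit genes had the run in 63.2% of 38 and small subunit genes in 60% of 25.

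Other motifs were searched in the whole promoter. From 250 bases before to 50 bases after the start, on both strands, CCGGAAG (a core recognised by ETS factors) was found for 41.3% of the 63 members and for 19.8% of all genes with a promoter. TATAAA was found for 11.1% of the members against 9.42% of all, and GGGCGG, the core of Sp1 sites, for 60.3% against 66.1%. CCGCCATC, found in YY1 sites, was found for 3.17% against 4.03%, and its share of promoters rather than genes was 5.33% against 3.37%. No test was made, and a match is a description of letters and not of a bound site.

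The depth behind the values was estimated from the steps of low FPKM values (fragments per kilobase of transcript relative to the library's size), at about 23600000 fragments for the WT-APC and 27000000 for the OX40L-TG-APC library. Over the 10645 annotated genes whose larger value reached 1 FPKM, the median change was 0.11 on the log2(FPKM + 1) scale, OX40L-TG-APC over WT-APC. This scale is used for every change below, and it understates the change of low genes. T cell markers were high in both libraries: Cd3g was at 277 FPKM in the WT-APC and 304 FPKM in the OX40L-TG-APC library, and Cd4 at 201 and 246 FPKM. The median change of the 8 T cell markers was 0.10, from -0.61 for Cd28, at 217 and 142 FPKM, to 0.71 for Cd2, at 248 and 407 FPKM. All 10 B cell markers were detected in both libraries, and their summed level was 56.8 FPKM in the WT-APC and 24.1 FPKM in the OX40L-TG-APC library, with a median change of -1.01 over the 8 that could be compared. Summed myeloid markers were at 11.9 and 5.49 FPKM, with none at 0, and dendritic cell markers at 4.79 and 2.15 FPKM, with Clec9a and Siglech at 0 in the OX40L-TG-APC library. Erythroid markers, haemoglobin genes and Alas2, summed to 40.5 and 78.3 FPKM. These cells also make ribosomal proteins, and their part in the values below was not tested. In RNA of mixed cells, fewer cells of a type and less RNA per cell cannot be told apart.

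Together the members were among the most abundant mRNAs of both libraries. Their summed level was 31643.8 FPKM in the WT-APC library, 8.61% of the FPKM of all protein-coding genes. In the OX40L-TG-APC library it was 34746.3 FPKM, or 8.30%. The sum was thus higher in the OX40L-TG-APC library while its share was lower. The large subunit took 5.37% and 5.21%, and the small subunit 3.24% and 3.09%. Of the 20 highest protein-coding genes, 7 were members in the WT-APC library and 6 in the OX40L-TG-APC library, and of the 100 highest 23 and 22.

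**Figure D1:**
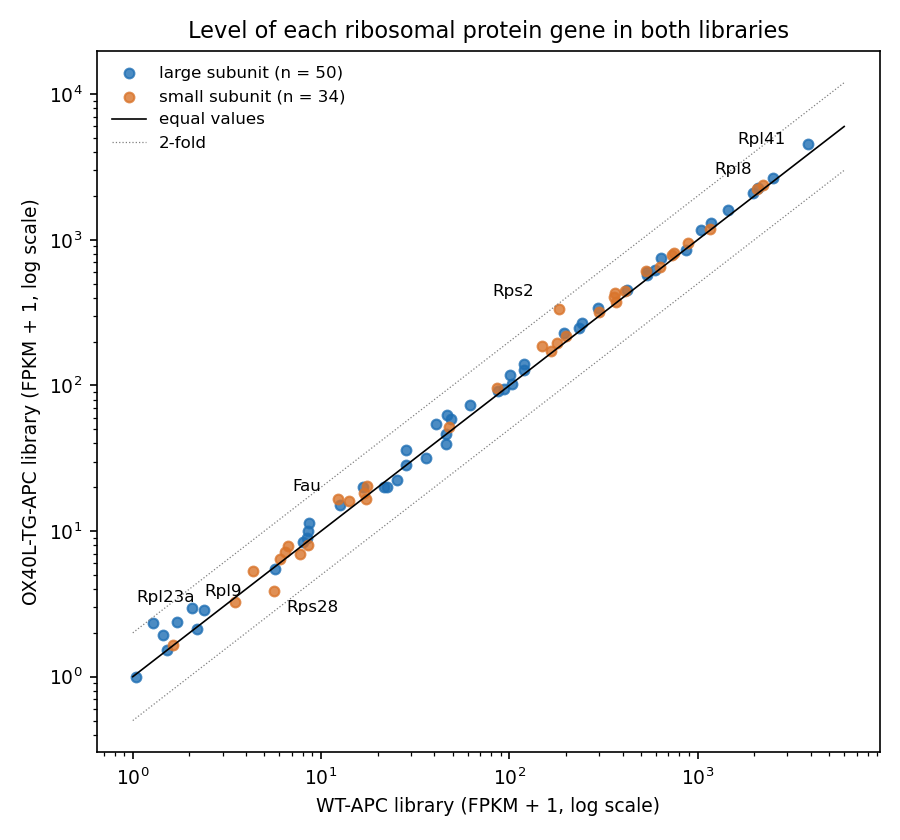
FPKM + 1 of all 84 members in the WT-APC library (x axis, log scale) against the OX40L-TG-APC library (y axis, log scale), with 50 large subunit genes in blue, 34 small subunit genes in orange, the line of equal values and the lines of 2-fold difference. The points lie close to the line of equal values from under 1 FPKM to 4550 FPKM for Rpl41, and Rps2 is the member above 100 FPKM that stands farthest from it.

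The subunit proteins are needed in equal numbers, but the measured levels, which FPKM scales by transcript length, ranged widely. In the WT-APC library the members ran from 0.0436 FPKM for Rpl3l to 3859 FPKM for Rpl41, with a median of 72.7 FPKM and quartiles of 7.60 and 413.5 FPKM. In the OX40L-TG-APC library the median was 81.4 FPKM. At least 1000 FPKM were reached by 10 members in each library, while 22 lay under 10 FPKM in the WT-APC and 21 in the OX40L-TG-APC library. The spread between genes was thus far larger than any difference between the libraries. As a description of that order, the log10(FPKM + 1) values of the 84 members correlated with a Pearson r of 0.998 between the libraries, which share gene models and processing.

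Of the large subunit genes the highest was Rpl41, which encodes the smallest protein of the ribosome. Rpl41 was at 3859 FPKM in the WT-APC and 4550 FPKM in the OX40L-TG-APC library, a ratio of 1.18 (95% interval 1.16 to 1.19 for counting error only). It ranked 2 among the protein-coding genes of both libraries. Rpl8 was at 2511 and 2667 FPKM, and Rpl12, at the base of the stalk that recruits translation factors, at 2079 and 2272 FPKM. Rplp1, a stalk protein, was at 1959 and 2110 FPKM. Rpl4, which lines the tunnel through which the new protein leaves, was at 1441 and 1597 FPKM. The order of these 5 was the same in both libraries.

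Of the small subunit genes, Rps9 was at 2073 FPKM in the WT-APC and 2237 FPKM in the OX40L-TG-APC library, in the same range as the leading large subunit genes. Rps20 was at 1162 and 1177 FPKM, with a ratio of 1.01 (95% interval 1.00 to 1.02). That interval assumes a transcript of 3706 bases, longer than the printed locus (chr4:3834473-3835600), and may be too narrow. Rps3, which sits where the mRNA enters, was at 892 and 954 FPKM. The median level was higher for the small than for the large subunit, 156.5 against 46.7 FPKM in the WT-APC library and 177.5 against 59.8 FPKM in the OX40L-TG-APC library. Measured levels also went with close copies elsewhere in the genome, as described below. The part of such copies in this difference between the subunits was not tested.

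The levels of these genes differed little between the cultures. Of the 84 members, 80 reached 1 FPKM in at least 1 library, and the comparison was made over these. The other 4 were Rpl27, Rps13, Rpl39l and Rpl3l. On the log2(FPKM + 1) scale none of the 80 was 2-fold higher or lower, beside a background over all genes tested of 2.26% higher and 1.32% lower. Without the added 1 FPKM the low gene Rpl23a had a ratio of 4.88, as described below. The median change of the 80 was 0.12, next to 0.11 for all genes, and 41 of the 80 lay above that median of all genes. The middle 50% of the members spanned 0.05 to 0.23. None of the members was in the authors' deposited table of their own comparison, in which each of the 398 rows has a log2 ratio of at least 1 in size and a p-value of at most 0.0499.

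**Figure D2:**
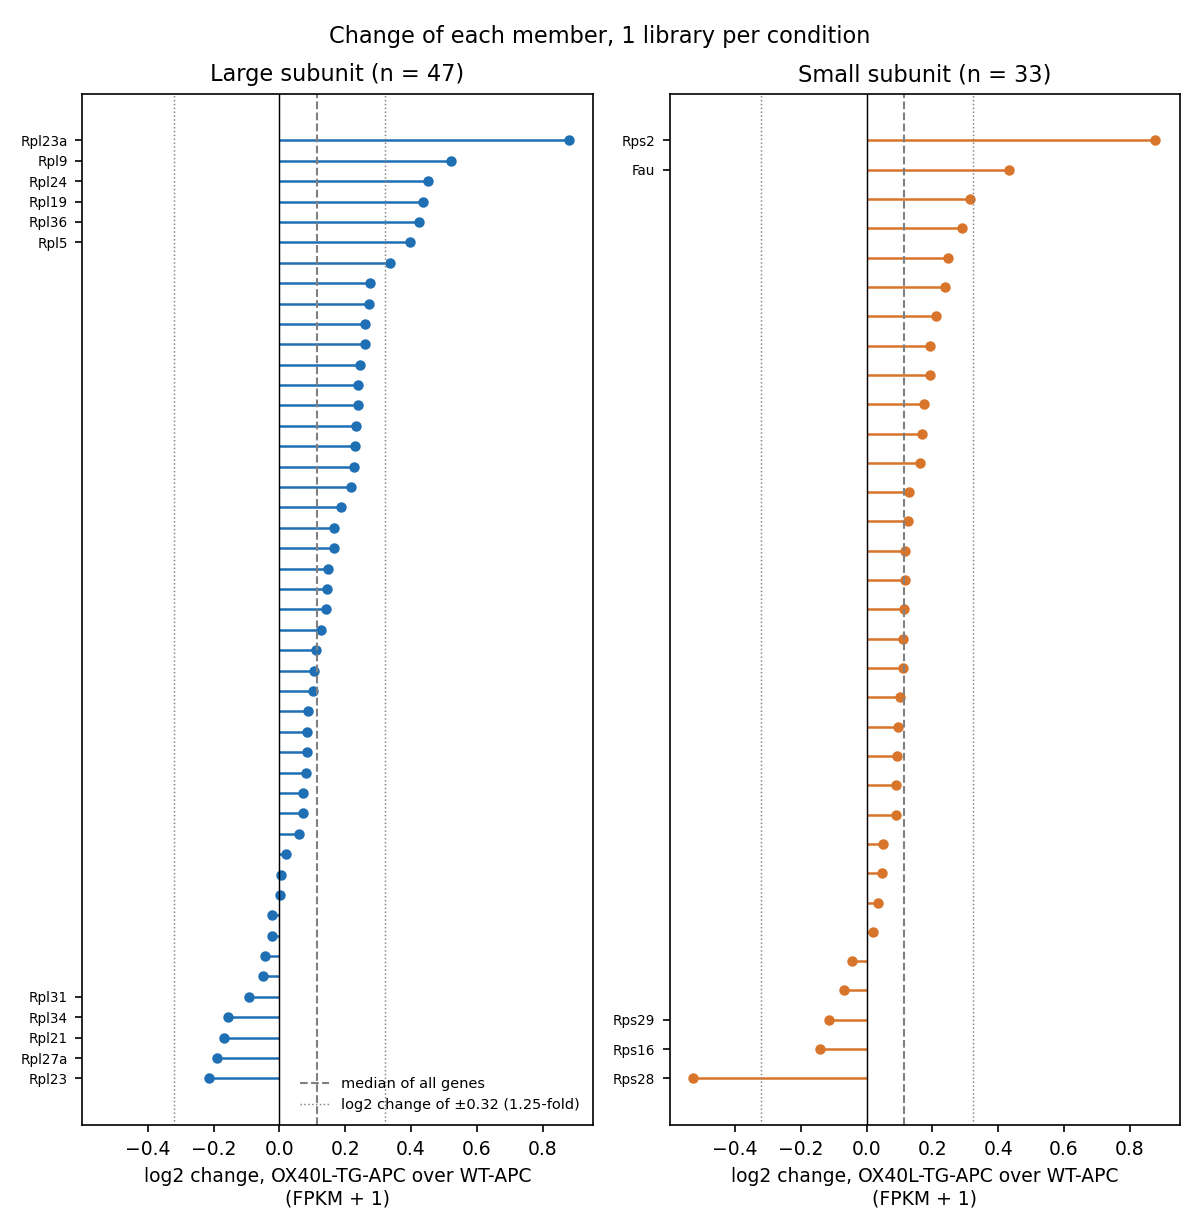
Log2 change (OX40L-TG-APC over WT-APC, FPKM + 1) of each of the 47 large and 33 small subunit genes that could be compared, ordered by change, with names at the 8 highest and 8 lowest changes, a dashed line at the median of all genes (0.11) and dotted lines at changes of 0.32 in either direction. Most points lie between 0 and 0.3. Rpl23a and Rps2 lie farthest to the right and Rps28 farthest to the left.

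Past a smaller step, a log2 change of 0.32 in either direction, 9 members were higher in the OX40L-TG-APC library and 1 was lower. Over all genes tested 21.5% were higher and 7.14% lower by that step. The 9 of 80 are thus below the background share. Setting the median ratio of the 6038 genes at 10 FPKM or more to 1, which scaled the OX40L-TG-APC values by their median ratio of 1.09, left 4 members higher and put 2 lower. With equal summed FPKM 4 were higher and 5 lower, so the balance of higher against lower members rested on the scaling.

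Among the 9 higher members, Rps2 was the only gene with a high level in both libraries. Rps2 encodes a protein near the mRNA entry channel that is known for binding the arginine methyltransferase Prmt3. It was at 182 FPKM in the WT-APC and 335 FPKM in the OX40L-TG-APC library, a ratio of 1.84 (95% interval 1.77 to 1.91 for counting error only) and a change of 0.88. The interval rests on about 4292 and 9032 fragments, so counting error is small here, but it says nothing of the spread between cultures. Rps2 has 47 near copies elsewhere in the genome, 9 of them at 98% identity or more. Its printed locus, chr17:24720063-24721927 of GRCm38, covers part of the RefSeq gene, which spans 24718121 to 24721927, and holds 1 other RefSeq gene, the snoRNA Snora64, whose part in the value was not tested.

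Rpl19 was at 45.4 FPKM in the WT-APC and 61.8 FPKM in the OX40L-TG-APC library, and Rpl36 at 39.7 and 53.7 FPKM, ratios of 1.36 and 1.35. Fau encodes a ubiquitin-like protein fused to the small subunit protein Rps30. It was at 11.3 and 15.6 FPKM, a ratio of 1.38 (95% interval 1.14 to 1.67). Rpl5 binds the ribosomal 5S RNA and, with Rpl11, the ubiquitin ligase Mdm2. Rpl5 was at 7.62 and 10.3 FPKM, while its partner Rpl11 was at 1178 and 1299 FPKM, a ratio of 1.10. Rpl38, known for its role in the translation of Hox mRNAs in mouse embryos, was at 27.3 and 34.8 FPKM, but the table prints its locus at another gene, as described below. The intervals of these genes lay above 1 for counting error, beside a median ratio of 1.09 over all genes at 10 FPKM or more.

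The other 3 higher members rested on few fragments. Rpl23a, at the mouth of the exit tunnel, was at 0.277 FPKM in the WT-APC and 1.35 FPKM in the OX40L-TG-APC library, about 4 and 20 fragments, and its ratio of 4.88 had an interval of 1.46 to 17.6. Rpl9 was at 1.07 and 1.96 FPKM with an interval of 1.01 to 3.29. Rpl24, which bridges the subunits, was at 0.726 and 1.36 FPKM with an interval of 0.882 to 3.98. These values are close to the filter at 1 FPKM, which Rpl23a and Rpl24 passed only through the OX40L-TG-APC library.

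Lower values were fewer and smaller. Rps28, a small subunit protein near the mRNA exit, was the member lower by that step, at 4.62 FPKM in the WT-APC and 2.89 FPKM in the OX40L-TG-APC library. Its interval of 0.384 to 1.02 included 1. Rpl23 was at 45.0 and 38.7 FPKM, Rpl27a at 35.2 and 30.7 FPKM, and Rpl21 at 24.4 and 21.6 FPKM, ratios of 0.860, 0.874 and 0.884. The intervals of these 3 large subunit genes lay below 1 for counting error. Rpl34, Rps16 and Rps29 had ratios of 0.893, 0.893 and 0.894 with intervals that included 1, and Rpl31 had a ratio of 0.934.

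The large and the small subunit differed little from each other. The median change was 0.14 over 47 large subunit genes and 0.11 over 33 small subunit genes. Past a change of 0.32, 7 of the 47 large subunit genes were higher and 0 lower, and 2 of the 33 small subunit genes were higher and 1 lower. Over all genes tested 21.5% were higher and 7.14% lower, so the share of higher genes was below the background in both subunits. The difference of the medians, 0.03, was small beside the spread of the genes within each subunit, an SD of 0.20 for the large and 0.21 for the small subunit. It changed sign with the level of the genes: it was 0.03 for genes at 100 FPKM or more, -0.09 between 10 and 100 FPKM and 0.21 under 10 FPKM. Without the 11 members with transcripts under 500 bases it was -0.01.

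**Figure D3:**
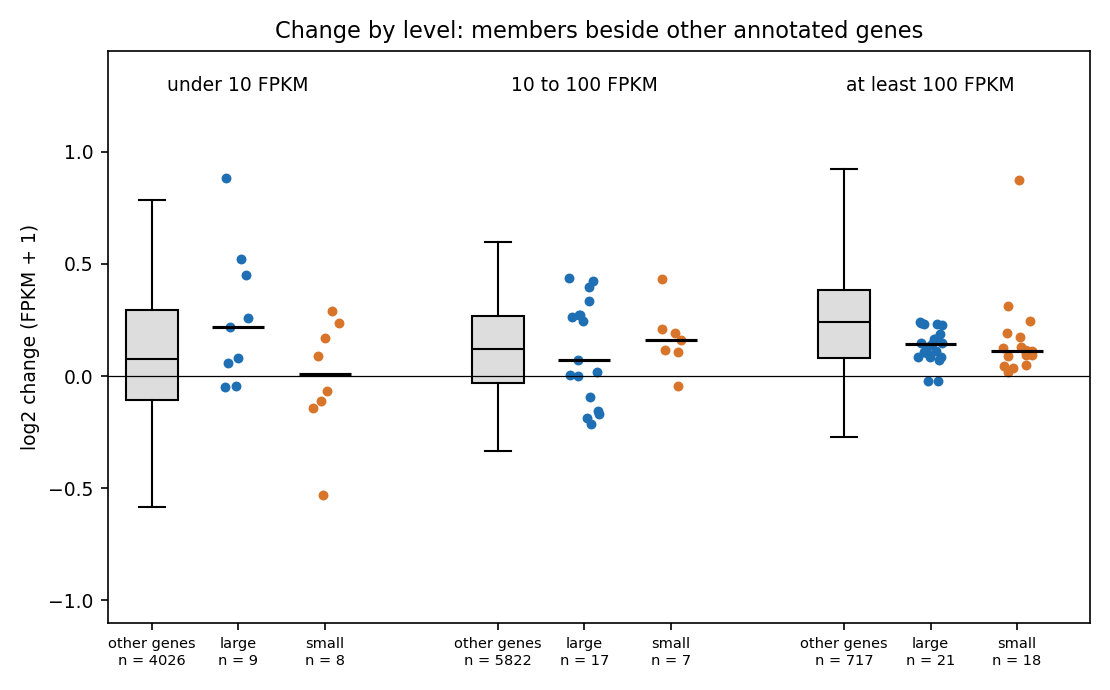
Log2 change (FPKM + 1) by level, the higher of both FPKM values, for genes that are no members (boxes: quartiles and median, whiskers: 5th to 95th percentile), large subunit genes (blue points) and small subunit genes (orange points), with horizontal bars at the subunit medians. At 100 FPKM or more the points of both subunits, apart from Rps2, lie in a narrow band, mostly below the median of the other genes.

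The high members moved together within a narrow range. The 39 members with at least 100 FPKM in either library had a median change of 0.12, and 37 lay above 0. The SD of the 39 was 0.14, with quartiles of 0.088 and 0.18. Leaving out Rps2, the changes of the other 38 ran from -0.02 to 0.31, the latter for Rps27l, with an SD of 0.076. The 717 other genes of that level, with none left out, had a median of 0.24 and an SD of 0.74. Of these, 31 were 2-fold higher and 4 lower. Their changes ran from -3.62 to 10.77, with quartiles of 0.082 and 0.38. Members and other genes thus differed less by quartiles than by SD. As a value and not a test, the member median thus lay below that of other genes of like level, although it was close to the median of all genes. The spread was wider where levels were lower: the SD was 0.21 over the 24 members between 10 and 100 FPKM and 0.31 over the 17 under 10 FPKM. Counting error also grows as levels fall.

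The stalk and fusion proteins followed the same small differences. Rplp0, which anchors the stalk, was at 1035 FPKM in the WT-APC and 1160 FPKM in the OX40L-TG-APC library. Rplp2, its other small partner beside Rplp1, was at 48.0 and 57.7 FPKM, far below the 1959 FPKM of Rplp1 in the same WT-APC library although the proteins work as a pair. Rpsa, also known as a laminin receptor precursor, was at 411 and 445 FPKM. Rps27a, made as a fusion with ubiquitin, was at 5.05 and 5.44 FPKM.

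Several members are also known for roles in development, signalling or disease. Rpl22, which mice need for the development of alpha-beta T cells, was at 118 FPKM in the WT-APC and 128 FPKM in the OX40L-TG-APC library. Rps19, the gene most often mutated in Diamond-Blackfan anaemia, was at 534 and 610 FPKM, and Rps14 at 364 and 432 FPKM. The printed locus of Rps14 also spans Cd74, which B cells and other APCs express strongly, and whether reads of Cd74 entered the value of Rps14 was not tested. Rpl13a, a part of the complex that silences interferon-gamma-induced transcripts, was at 540 and 573 FPKM. Rps6, the substrate of the S6 kinases, was at 16.2 and 15.7 FPKM, and Rpl10, which joins the large subunit late in its assembly, at 1.18 and 1.11 FPKM, both with intervals that included 1.

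Paralogs in the table differed in level much more than in change. Rpl3 was at 119 FPKM in the WT-APC library and its striated muscle paralog Rpl3l at 0.0436 FPKM, and Rpl3l was listed at 0 in the OX40L-TG-APC library. Rpl39 was at 534 FPKM in the WT-APC library and Rpl39l, known from testis, at 0.455 FPKM. Rps4x was at 359 FPKM and Rps4l at 3.36 FPKM. In these 3 pairs the widely expressed form was the higher. In others the row of the l form held the higher value: Rpl36al was at 195 FPKM and Rpl36a at 1.39 FPKM, and Rps27l was at 148 FPKM and Rps27 at 7.48 FPKM. Rpl36a and Rps27 each have an identical copy elsewhere in the genome, and the row of Rps27 is printed at another gene, as described below. Their levels, and so the order within these pairs, are uncertain. Rps27l, a gene induced by p53, was at 185 FPKM in the OX40L-TG-APC library, a ratio of 1.24 (95% interval 1.17 to 1.32), the second largest change among members above 100 FPKM after Rps2. Rpl32 and Rpl32l were at 636 and 243 FPKM, and the printed locus of Rpl32l also holds 13 other RefSeq genes, 8 of them coding or lncRNA genes.

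The low values of many members went with near-identical copies of their coding sequence elsewhere in the genome. Against the GENCODE transcripts of GRCm38, the coding sequences of 82 members matched 995 other genes with at least 90% identity over at least 80% of their length, of which 934 were processed pseudogenes. The number of copies per member had a median of 8.5 and reached 77 for Rpl21, and 6 members had none. How the authors' counting treated reads that fit several places is not known, so the levels of members with close copies are uncertain.

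Coding sequences of 4 members are shown beside a copy, since the levels of the members are set beside that distance below. Each line gives 90 bases of the coding sequence, numbered from its start codon, from GENCODE transcripts of GRCm38, 5′ to 3′, with mismatched bases in capitals. Coordinates give the extent of the match in the copy.
Rpl4, bases 509 to 598: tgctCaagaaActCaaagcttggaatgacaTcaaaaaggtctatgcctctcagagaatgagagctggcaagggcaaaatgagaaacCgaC
Gm5835 (chr1:143093347-143094616, - strand): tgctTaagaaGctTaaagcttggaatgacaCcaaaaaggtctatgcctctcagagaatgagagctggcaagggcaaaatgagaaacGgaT
Rps2, bases 1 to 90: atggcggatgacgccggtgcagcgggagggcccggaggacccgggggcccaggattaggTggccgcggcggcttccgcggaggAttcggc
Rps2-ps13 (chrX:52898588-52899469, + strand): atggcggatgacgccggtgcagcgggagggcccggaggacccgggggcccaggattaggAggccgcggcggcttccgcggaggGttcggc
Rpl38, bases 1 to 90: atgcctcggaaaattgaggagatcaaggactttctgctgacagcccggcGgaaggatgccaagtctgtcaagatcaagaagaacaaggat
Gm8129 (chr6:52346730-52346942, - strand): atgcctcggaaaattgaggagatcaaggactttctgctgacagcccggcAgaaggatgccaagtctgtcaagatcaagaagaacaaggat
Rpl27 and Gm11518 (chr11:94037218-94037628, - strand), bases 1 to 90: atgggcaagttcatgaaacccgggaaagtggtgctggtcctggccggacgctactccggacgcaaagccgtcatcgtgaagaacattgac
Rpl4, at 1441 FPKM in the WT-APC library, has a single copy, Gm5835, with 96.9% identity and 6 mismatches in the stretch shown. Rps2, at 182 FPKM, differs from Rps2-ps13 by 2 mismatches there and has 99.2% identity over the match. Rpl38, at 27.3 FPKM, differs from Gm8129 by 1 mismatch in all 213 coding bases. Rpl27, at 0.524 FPKM in the WT-APC and 0.527 FPKM in the OX40L-TG-APC library, is identical to Gm11518 over all 411 coding bases, so no read within the coding sequence can separate them.

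These copies were chosen as examples and are not always the closest, since Rpl38 and Rps2 have closer ones. By the closest copy of each member, levels were lower where that copy was closer. The 14 members with no copy within 2% of their coding sequence had a median of 684.6 FPKM in the WT-APC library, and 12 of them reached 100 FPKM. Among these, Rpl8, Rps3 and Rps27l had no copy at 90% identity or more. The other 2 of the 14, Rpl3l and Rpl39l, are the tissue-restricted paralogs. The median was 216.3 FPKM for the 22 members whose closest copy differed in more than 0.5% and up to 2% of its bases, 45.2 FPKM for the 24 whose closest copy differed in at most 0.5%, and 9.45 FPKM for the 22 with an identical copy. Identity to the best copy and the WT-APC level had a Spearman rho of -0.56 over the 76 members with a copy, given as a description, since the values share a library and gene models. The value in the OX40L-TG-APC library was also -0.56. Exceptions were Rpl41, Rpl12 and Rpl28, which reached 3859, 2079 and 862 FPKM in the WT-APC library despite an identical copy. The median change between the libraries showed no such order, at 0.11, 0.12, 0.09 and 0.16 over the members of these classes that could be compared. Its spread was smallest without a close copy, with SDs of 0.080, 0.19, 0.24 and 0.24 in the same order. In the class with no copy within 2% the changes ran from 0.05 to 0.31. Levels also differ between these classes, and what underlies the wider spread was not tested.

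**Figure D4:**
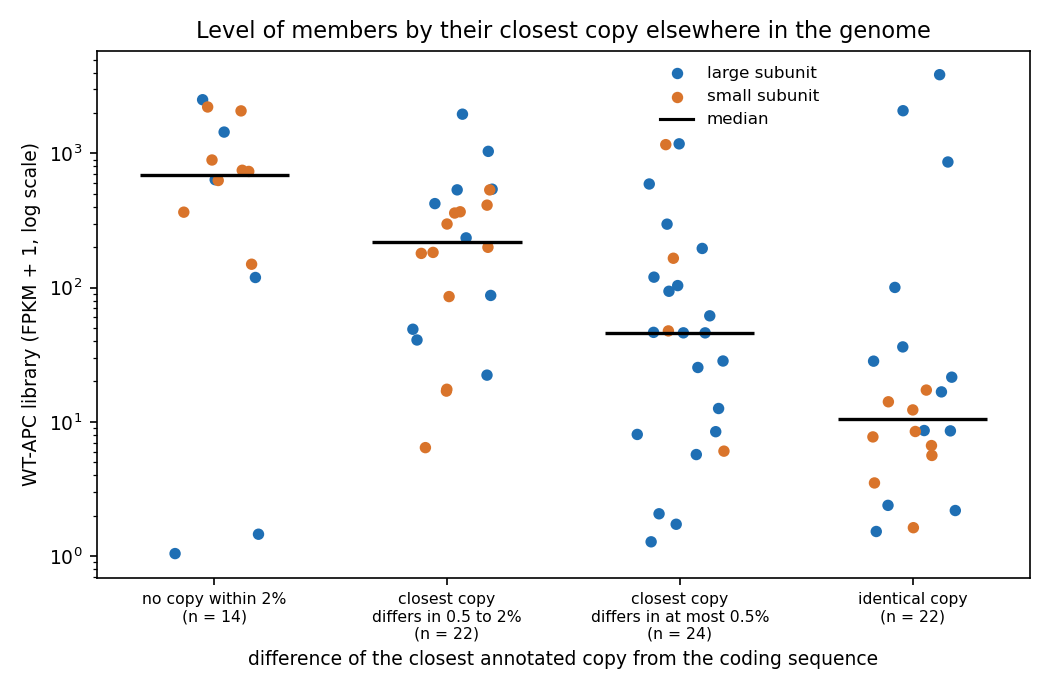
FPKM + 1 in the WT-APC library (y axis, log scale) of 82 members grouped by the share of bases in which their closest annotated copy differs (x axis, 4 classes with n = 14, 22, 24 and 22), with large subunit genes in blue, small subunit genes in orange and black bars at the class medians. Levels step down from left to right, with medians (before 1 is added) from 684.6 to 9.45 FPKM, and 3 members with an identical copy stay above 100 FPKM.

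For several members a row at a copy held the larger value. Rpl37 was at 7.06 FPKM in the WT-APC library, and the row of its copy Rpl37rt at 878 FPKM in the WT-APC and 934 FPKM in the OX40L-TG-APC library. Rpl26 was at 296 FPKM in the WT-APC library and its copy Gm15772 at 770 FPKM. Rpl31 was at 20.5 FPKM and the row at Rpl31-ps8 at 264 FPKM. Adding member and copy gave ratios between the libraries of 1.06 for Rpl37, 1.11 for Rpl26 and 1.14 for Rpl31. For Rpl31 the sum was thus higher in the OX40L-TG-APC library where the member's own value was lower. Rpl34 did the same: it was at 21.3 and 19.0 FPKM, its copy Rpl34-ps1 at 188 and 237 FPKM, and the sum had a ratio of 1.22. Both of these rows are printed at the same locus on chromosome 6, that of the copy. They are thus values of different identifiers at a shared place.

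The table lists 4 annotated genes with -ps in their symbol, with a median change of 0.10. Of these, Rpl34-ps1 and Rps15a-ps4 were past 0.32 higher and 0 lower. Beside them, 21.5% of all genes tested were higher and 7.14% lower, and 4 genes are too few to compare with these shares. The table also printed 8 of the 84 members, 9.52%, at a locus that does not overlap their RefSeq gene, against 33 of 13027 annotated genes, or 0.253%. In each case the locus held a copy of the member, among them Gm10288 on chromosome 3 for Rpl11, Gm10275 on chromosome 10 for Rpl12, Rpl28-ps1 on chromosome 1 for Rpl28 and Rpl34-ps1 on chromosome 6 for Rpl34. For Rpl38 it was Gm8129 on chromosome 6, for Rps12 Rps12-ps4 on chromosome 7 and for Rps27 Rps27rt on chromosome 9. Whether the FPKM of these rows came from the gene, the copy or both was not tested.

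Other genes of the translation machinery, from lists chosen by their role, were set beside the ribosomal proteins. Of 19 further genes with TOP mRNAs, such as elongation factors, 3 were higher by a change of 0.32 or more and 0 lower, and the median change was 0.18. Eef1a1, which brings tRNAs to the ribosome, was at 3332 FPKM in both libraries, Eef2 at 1807 and 2063 FPKM, and Npm1, a nucleolar chaperone of ribosome assembly, at 303 and 383 FPKM. Rack1, a protein of the small subunit that does not carry an Rps name, was at 2062 and 2224 FPKM. Of 30 initiation factors 6 were higher and 0 lower, with a median of 0.15 and Eif2s2, a part of the factor that carries the initiator tRNA, at 18.4 and 28.3 FPKM. Of 77 mitochondrial ribosomal protein genes, which belong to the separate ribosome of mitochondria, 14 were higher and 0 lower, with a median of 0.17 and a largest difference for Mrpl45, from 27.3 to 48.0 FPKM. For initiation factors and mitochondrial ribosomal proteins these counts are close to the background share of 21.5% higher, and their 0 lower stand beside 7.14%.

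**Figure D5:**
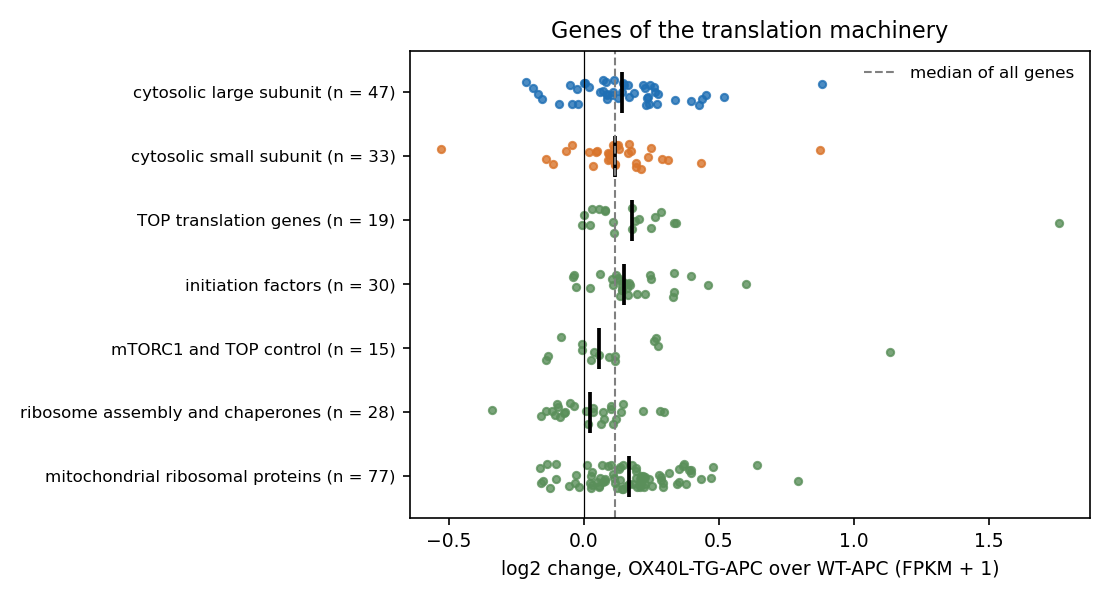
Log2 change (FPKM + 1) of each gene of the 2 subunit groups and of 5 other lists of the translation machinery, with a black bar at each list's median, a dashed line at the median of all genes (0.11) and a solid line at 0. Medians lie between 0.02 for ribosome assembly and 0.18 for the TOP genes. Eif4ebp1 is the point farthest to the right among the mTORC1 genes.

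Genes that build ribosomes or control TOP mRNAs had lower medians. The 28 assembly factors and chaperones that could be compared had a median change of 0.02, with 0 higher past 0.32 and 1 lower. The shares over all genes tested were 21.5% higher and 7.14% lower. The lower gene was Grwd1, a chaperone of the protein of Rpl3, at 25.01 FPKM in the WT-APC and 19.5 FPKM in the OX40L-TG-APC library. The 15 genes of mTORC1 and TOP control had a median of 0.05, and Larp1, the repressor of TOP mRNAs, was at 39.7 and 48.2 FPKM. The gene of that list past a change of 0.32 was Eif4ebp1, which encodes an inhibitor of cap-dependent initiation that mTORC1 switches off. It was at 61.6 FPKM in the WT-APC and 136 FPKM in the OX40L-TG-APC library, and the authors' deposited table gives it a log2 ratio of 1.18 with a p-value of 0.00225. That log2 ratio rests on 60.1 FPKM in the WT-APC and 136 FPKM in the OX40L-TG-APC library, so the authors' deposited WT-APC values of Eif4ebp1 differ. The lists and the members share the same 2 libraries, so their medians are not independent of each other.

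Members with and without a pyrimidine run near the start, whether or not it covered the start, differed little in change. The 38 with the run that could be compared had a median of 0.13, and the 21 without it a median of 0.17. Their levels overlapped, with medians of 89.7 and 45.0 FPKM in the WT-APC library over the same 38 and 21 members. Of the genes whose starts are printed above, Rpl28 was at 862 FPKM in the WT-APC and 849 FPKM in the OX40L-TG-APC library, Rpl35a at 93.0 and 93.3 FPKM, and Rpl15 at 15.7 and 19.2 FPKM, while Fau had a ratio of 1.38 and Rps6 of 0.967. These are RNA levels, and the translation that the motif is known to govern was not measured.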

How the data were processed

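RNA of 2 cultures was sequenced, 1 library per condition. The authors deposited FPKM values per gene and, per the file headers, a second table with log2 ratios and p-values of their own comparison. Reads were aligned with TopHat2 and quantified with Cuffdiff on mm9, per the submitters' processing notes, while the printed loci overlap the GRCm38 gene for 99.7% of annotated genes. Their versions and gene models are not given in the sources used here. The members and lists were chosen with earlier results of these data known. Genes were named by the 8 highest and 8 lowest changes, the 5 highest levels per subunit, role, paralogy or failing the filter, and the others after their values were seen. The change is the log2 ratio of OX40L-TG-APC to WT-APC values after 1 FPKM was added to each, over genes with a larger value of at least 1 FPKM (python 3.11.15, pandas 2.3.3). Depth was estimated from 87 genes under 0.3 FPKM, of which 67.8% gave whole-number fragment ratios within 0.2% at a depth ratio of 1.14, against 3.45% at a typical ratio. Intervals are exact (Clopper-Pearson, 95%) on fragments estimated from that depth and transcript length, and cover counting error only. Copies were found with blastn 2.17.0. Scaling, pseudocount, filters and sets of members were varied, and no column of other samples was used. Some members and genes of the lists are not reported by name here.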

Additional observations from a re-analysis of the deposited data

How the results depend on the processing

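With 1 library per condition no spread between cultures is known, and depth limits the members under 10 FPKM. No paired analysis was possible because each condition had 1 library. Scaling moved all genes together: with the median ratio of genes at 10 FPKM or more set to 1, the median was -0.01 for the members (-0.0095), 0.014 for the large and -0.012 for the small subunit, and -0.0022 for all genes. With equal summed FPKM these were -0.059, -0.038, -0.060 and -0.050. The member median less that of all genes stayed between -0.0093 and 0.032 under all settings. Members higher by 0.32 or more numbered 9, and 4 with a pseudocount of 5 FPKM, 4 under either scaling and 5 without members whose printed locus holds another gene. Members lower numbered 1, and 0 with a pseudocount of 5 FPKM, 2 and 5 under the scalings, 0 where the smaller value had to reach 5 FPKM and 0 without transcripts under 500 bases. The settings without members printed elsewhere and without Rps2 were chosen after seeing the data. No named gene past 0.32 turned direction.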

Other observations

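In the deposited table of all genes, 9674 WT-APC values were written with 7 significant digits, and 98.9% of these ended in 5. The form of these values was not explained by the file headers, and whether the WT-APC column stands for a single measurement was not tested.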
